A study of Mus musculus with 6 samples.

Results

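The CLK kinases and the SR proteins they phosphorylate were followed in mouse bone marrow. The set holds 10 of the 14992 genes in the deposited table, taken by symbol: 4 kinase genes, Clk1, Clk2, Clk3 and Clk4, and 6 SR protein genes, Srsf2, Srsf3, Srsf5, Srsf6, Srsf7 and Srsf11. All 10 were present in the table and all 10 passed the filter on low counts. They were selected on measured values, with results of the comparison of inhibitor and vehicle libraries already known, so their differences between groups are a description: where a fit over all genes called a member, the call is counted beside the share of all genes called and supports nothing.

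The RNA came from marrow cells of irradiated C57/BL6 mice that had received whole marrow from Dnmt3a knockout donors, a genotype that every library in the study shares. One group of 3 libraries (vehicle 1, 2 and 3) came from recipients given vehicle. The other group of 3 (inhibitor 1, 3 and 5) came from recipients given a PI3Kalpha/beta inhibitor, a blocker of those isoforms of the lipid kinase, at 75 mg/kg, and treatment lasted 21 days in both groups. The labels describe the grafted cells as leukaemic but name no Cre driver, age or share of host cells, and they do not state whether each library is a separate mouse, so standard errors measure the spread between these libraries, which may be technical. In whole marrow, a change in the number of cells of one type and a change in RNA per cell cannot be told apart.

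SR proteins are RNA-binding proteins with a tail rich in arginine and serine, which guide the spliceosome to exons and accompany mRNA out of the nucleus. That tail must be phosphorylated for the protein to work. SRPK kinases add phosphates in the cytoplasm so that the protein can be imported, and CLK kinases add more in the nucleus, which releases SR proteins from nuclear speckles to sites of transcription. The genes of both families limit their own output through splicing. SR genes include poison exons that send the transcript to nonsense-mediated decay, and CLK transcripts retain introns or skip an exon when kinase activity is high. PI3K signals through AKT, and CLK2 and SRPK proteins are known to act downstream of AKT in insulin and growth factor signalling.

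Total counts ran from 28198638 to 59384880 per library, and the 10 genes had between 282 and 18073 reads in any library. Clk2 had the fewest reads (282 to 525), so counting error weighs most on its values. All 6 general marrow leukocyte genes checked (such as Ptprc, which encodes CD45) were present, with a summed 2351 to 3638 CPM with vehicle and 2890 to 5023 CPM with the inhibitor. CPM here means counts divided by library size after TMM scaling, as edgeR computes them. Values of single libraries are given in the order vehicle 1, 2, 3 and inhibitor 1, 3, 5. Dnmt3a itself stood at 20.3 ± 4.01 CPM with vehicle and 17.0 ± 2.76 CPM with the inhibitor (SD, n = 3), and since both groups carry the knockout this checks no label. The groups also differed in cell markers. Summed over 14 of 14 macrophage markers, vehicle libraries held 2133 to 7730 CPM and inhibitor libraries 780 to 1003 CPM, and 12 of 12 neutrophil markers summed to 42553 to 68309 CPM and 106221 to 128962 CPM. Vehicle 1 stood apart within its group, with the 7730 CPM of macrophage markers and 5175 CPM over the 9 of 10 erythroid markers in the table, against 1549 and 1749 CPM in vehicles 2 and 3 and 962 to 2087 CPM in the inhibitor libraries. The 10 B lymphoid markers summed to 57.5 to 123 CPM and 194 to 578 CPM, and the 10 stroma markers to 328 to 886 CPM and 232 to 406 CPM. The 10 T and NK cell markers summed to 197 to 285 CPM and 192 to 197 CPM. At an unadjusted edgeR p under 0.05, 7 of them were lower and 1, Nkg7, was higher (11.9% and 9.68% of all tested genes). By adjusted p edgeR called 1, Prf1, lower, as it did 1.19% of all tested genes. The 7 megakaryocyte markers summed to 230.4 CPM in vehicle 1, to 62.6 and 55.0 CPM in vehicles 2 and 3, and to 36.0 to 250.7 CPM with the inhibitor. No marker of these lists was at 0 in all libraries. The part of these cell differences in the values below was not tested.

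Clk1 and Clk4 were higher in every inhibitor library than in any vehicle library, Clk2 was slightly higher in the same way, and Clk3 and all 6 SR genes overlapped between groups. Clk1 stood at about 2 times its vehicle level and Clk4 at 1.72 times. The SR genes stood between 0.771 and 1.13 times. Counted against the whole table, 2 of the 10 genes, Clk1 and Clk4, were among those called higher by edgeR's quasi-likelihood test at a Benjamini-Hochberg adjusted p under 0.05. That call covered 81 of 12806 tested genes higher (0.633%) and 153 lower (1.19%), or 1.83% in either direction, and the choice of the members used this contrast. Groups did not overlap for 3 of the 10 genes, all higher, as for 14.4% of all tested genes higher, 16.2% lower and 30.7% in either direction. The median log2 fold change was 0.52 over the 4 kinase genes, 0.086 over the 6 SR genes and 0.00093 over all tested genes.

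**Figure D1:**
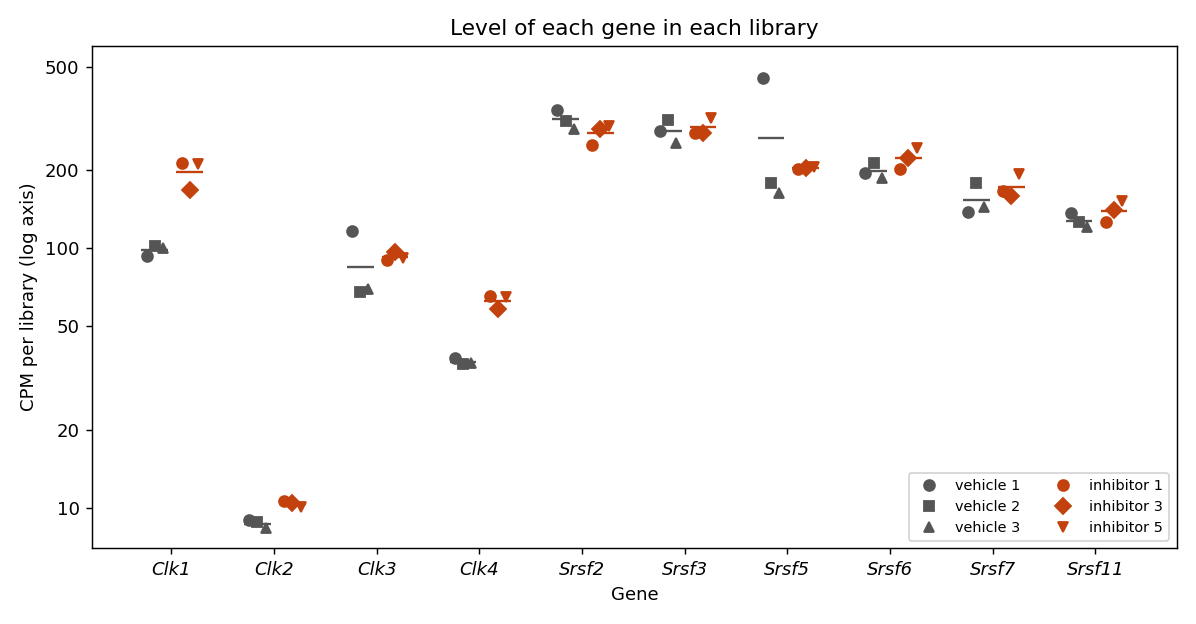
Level of each of the 10 genes in each library, in CPM on a log axis. Grey symbols are the 3 vehicle and orange symbols the 3 inhibitor libraries, and horizontal lines are group means. The orange points of Clk1 and Clk4 lie above all grey points, and vehicle 1 (grey circle) lies far above the other libraries for Srsf5 and above them for Clk3.

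Clk1, the founding member of the family and a kinase of the SR tail with dual specificity (chromosome 1, 58410189 to 58424066, GRCm38), showed the largest difference of the 10. It stood at 93.5, 101.5 and 100.6 CPM under vehicle, then 212, 167 and 209.9 CPM under the inhibitor. The vehicle libraries lay close together, and the lowest inhibitor library, inhibitor 3, was 1.65 times the highest vehicle library. The log2 fold change, inhibitor minus vehicle, was 0.995 ± 0.133 (SE), a fold of 1.99. The authors' deposited table gives a fold change of 1.998 for Clk1.

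Clk4, the closest relative of Clk1 (chromosome 11, 51261730 to 51281766), was lower in level but similar in pattern. Its values were 37.8, 35.8 and 36.1 CPM under vehicle and 65.4, 58.5 and 64.7 CPM under the inhibitor. Inhibitor 3 was again the lowest of the 3 inhibitor libraries, at 1.55 times the highest vehicle library. The log2 fold change was 0.782 ± 0.107 (SE), and the authors' deposited table gives a fold change of 1.72. Since the 2 genes are related, reads could in principle be assigned to the wrong copy. Over the annotated GENCODE transcripts of Clk1 and Clk4, 0 stretches of 50 bases were identical between them, and only 0.0711% of such stretches of Clk1 and 0.177% of those of Clk4 occurred in a transcript of any other gene. The non-coding gene Gm25082 accounts for the latter.

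Clk2, which is stabilised by insulin signalling through AKT in liver (chromosome 3, 89164795 to 89176921), was the lowest of the 10 genes. It stood at 8.95, 8.84 and 8.35 CPM under vehicle and 10.6, 10.5 and 10.1 CPM under the inhibitor. Groups did not overlap, but the lowest inhibitor library was just 1.12 times the highest vehicle library. The log2 fold change was 0.25 ± 0.15 (SE).

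Clk3, a family member that is abundant in testis (chromosome 9, 57750624 to 57765860), depended on 1 vehicle library. It stood at 116.7, 68.1 and 69.9 CPM under vehicle, then 89.7, 96.9 and 91.6 CPM under the inhibitor. All 3 inhibitor libraries thus lay above vehicles 2 and 3 and below vehicle 1. The log2 fold change was 0.13 ± 0.22 (SE) over all 6 libraries and 0.43 ± 0.10 without vehicle 1, where edgeR called 3 of the 10 genes, Clk3 with Clk1 and Clk4. In that fit it called 401 of 12946 tested genes higher (3.10%) and 633 lower (4.89%), 7.99% in either direction. In the annotation, 1284 exon bases of Clk3 (15.2%) lie on the opposite strand of exons of Edc3, a gene for an mRNA decapping factor. The library chemistry does not mark strand, so reads there cannot be told apart. The deposited length of Clk3 is 2494 bases, and how many of the shared bases the counted gene model includes is not known. Edc3 stood at 40.9 ± 8.01 and 45.4 ± 2.52 CPM with vehicle and with the inhibitor (SD, n = 3).

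**Figure D2:**
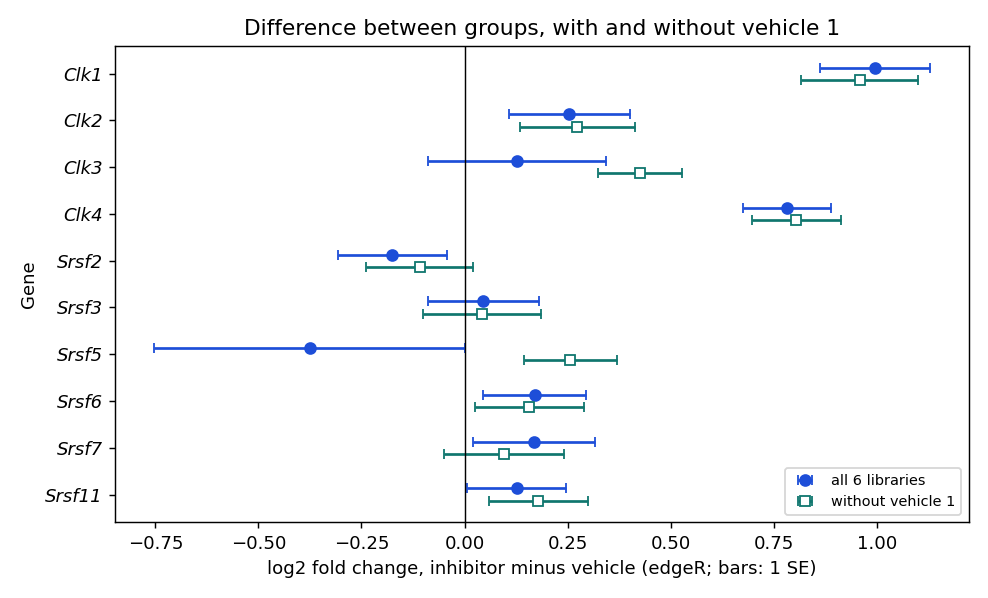
Log2 fold change of each gene, inhibitor minus vehicle, from edgeR with bars of 1 SE, over all 6 libraries (filled circles) and without vehicle 1 (open squares). Clk1 and Clk4 lie at 0.995 and 0.782 with all libraries and at 0.959 and 0.805 without vehicle 1, whereas Srsf5 moves from -0.38 to 0.26 and Clk3 from 0.13 to 0.43.

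Calls of Clk1 and Clk4 by edgeR depended on which libraries entered the fit. Both were called without vehicle 1. With any 1 of vehicles 2 and 3 and inhibitors 1, 3 and 5 left out, 0 of the 10 genes were called. In those fits 7 of 13016 tested genes were called higher over the whole table without vehicle 2. In the others, which tested 12973 to 13053 genes, 0 were called higher. The log2 fold change ran from 0.94 to 1.10 for Clk1 and from 0.76 to 0.84 for Clk4 with 1 library left out. For Clk2 it ran from 0.22 to 0.28.

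Set on a scale that allows genes to be compared, CPM per kilobase of gene length (RPKM), the kinases made up different shares of the family in the 2 groups. In vehicle libraries Clk3 (34.0 ± 11.1 RPKM) and Clk1 (31.9 ± 1.41 RPKM) were highest and did not differ beyond their spread, followed by Clk4 (18.7 ± 0.54 RPKM) and Clk2 (3.76 ± 0.14 RPKM; SD, n = 3). With the inhibitor Clk1 led at 63.6 ± 8.13 RPKM, and Clk3 (37.2 ± 1.51 RPKM) and Clk4 (32.2 ± 1.96 RPKM) followed. Clk1 made up 30.2%, 40.0% and 39.4% of the summed CLK level under vehicle and 48.1%, 42.5% and 47.8% under the inhibitor. The share of Clk4 was 19.3%, 22.3% and 22.3% and then 23.5%, 23.5% and 23.3%. That of Clk3 was 46.7%, 33.2% and 33.9% and then 25.2%, 30.5% and 25.8%. The share of Clk2 was 3.05% to 4.63%. None of the 4 shares overlapped between groups, but they add up to the whole in each library and so are not 4 separate shifts. The lower shares of Clk2 and Clk3 were not lower levels. Clk2 went from 3.76 to 4.48 RPKM and Clk3 from 34.0 to 37.2 RPKM (group means). The summed CLK level was 100.3, 82.3 and 82.7 RPKM under vehicle and 142.6, 127.5 and 142.1 RPKM under the inhibitor.

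**Figure D3:**
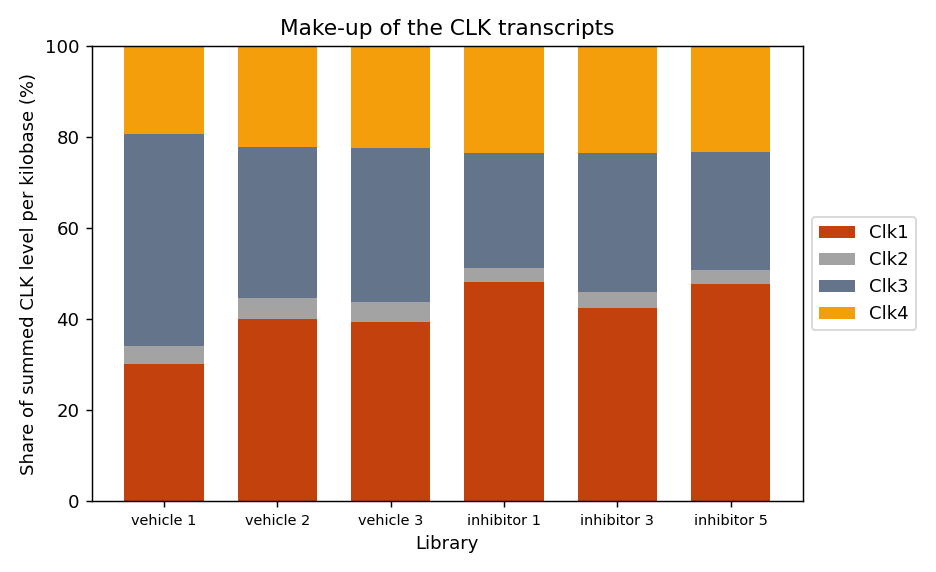
Share of each CLK gene in the summed level of the 4 genes per kilobase, in percent, in each library. Clk1 makes up 30.2% to 40.0% of the bar in vehicle and 42.5% to 48.1% in inhibitor libraries, and Clk2 is the thinnest part of every bar.

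All 6 genes for the SR substrates overlapped between groups. Srsf2, also known as SC35, a marker of nuclear speckles and a recurrent site of mutation in myeloid disease (chromosome 11, 116849901 to 116853094), stood at 341, 309.8 and 288 CPM under vehicle and 249.9, 287 and 294 CPM under the inhibitor. Vehicle 3 lay among the inhibitor libraries, and the log2 fold change was -0.18 ± 0.13 (SE). The deposited length of Srsf2 is 1903 bases, and how far its annotated overlaps with other genes were counted is not known. Of its annotated exon bases, 15.6% lie opposite exons of Mettl23 and 9.74% opposite exons of Mfsd11. These neighbours stood at 18.2 ± 2.10 and 27.8 ± 5.31 CPM with vehicle and at 24.5 ± 4.04 and 27.0 ± 3.72 CPM with the inhibitor (SD, n = 3), so the mean of Srsf2 was more than 10 times that of either.

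Srsf3, the smallest SR protein, which links splicing to mRNA export (chromosome 17, 29032628 to 29043373), was nearly level. It stood at 281, 312 and 254 CPM under vehicle and 278, 278 and 318 CPM under the inhibitor, a log2 fold change of 0.046 ± 0.134 (SE). Its 50-base stretches occur in transcripts of other genes at 10.04%, mostly in Gm12355, so part of its reads may not be uniquely placed. Srsf7, an SR protein with a zinc knuckle that also serves mRNA export (chromosome 17, 80200080 to 80207307), stood at 137, 178 and 144 CPM under vehicle and 166, 158 and 192 CPM under the inhibitor. Vehicle 2 lay above inhibitors 1 and 3, and the log2 fold change was 0.17 ± 0.15.

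Srsf6, which acts on alternative exons in many tissues (chromosome 2, 162931528 to 162937121), stood at 194, 212 and 187 CPM under vehicle and 202, 223 and 243 CPM under the inhibitor. Only inhibitor 1 fell within the vehicle range, and the log2 fold change was 0.17 ± 0.12 (SE). Srsf11, an SR-related protein that promotes inclusion of very short exons in neurons (chromosome 3, 158010473 to 158036639), stood at 137, 126 and 120.1 CPM under vehicle and 126, 140.2 and 151 CPM under the inhibitor, a log2 fold change of 0.13 ± 0.12.

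Srsf5, an SR protein whose splicing targets respond to insulin (chromosome 12, 80945504 to 80950507), was the most uneven of the 6 within a group. It stood at 452 CPM in vehicle 1 against 178 and 163 CPM in vehicles 2 and 3, and at 202, 204 and 205 CPM under the inhibitor. The 3 inhibitor libraries differed by a coefficient of variation of 0.925%, the vehicle libraries by 61.6%. The log2 fold change was -0.38 ± 0.38 (SE) over all 6 libraries and 0.26 ± 0.11 without vehicle 1, so the direction of Srsf5 is set by 1 library. The same library had the highest sums of macrophage and erythroid markers given above, and their part in the Srsf5 value was not tested. Of its 50-base stretches, 10.1% occur in other genes, mostly in Gm12966.

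These small differences moved with single libraries. With 1 library left out, the log2 fold change ran from -0.23 to -0.098 for Srsf2, from 0.11 to 0.24 for Srsf6, from 0.084 to 0.29 for Srsf7 and from 0.067 to 0.20 for Srsf11.

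Per kilobase, the SR genes were the more abundant family. In vehicle libraries Srsf2 (164 ± 14.2 RPKM) and Srsf5 (159.9 ± 98.5 RPKM) did not differ beyond their spread, Srsf3 followed at 92.8 ± 9.57 RPKM, Srsf6 and Srsf7 were level at 55.8 ± 3.67 and 55.7 ± 7.96 RPKM, and Srsf11 stood at 40.0 ± 2.68 RPKM (SD, n = 3). With the inhibitor the order was the same: 145.6 ± 12.5 RPKM for Srsf2, 123 ± 1.14 RPKM for Srsf5, 95.8 ± 7.62 RPKM for Srsf3, 62.8 ± 5.69 and 62.6 ± 6.49 RPKM for Srsf6 and Srsf7 and 43.6 ± 3.90 RPKM for Srsf11. Clk1, at 31.9 RPKM below all 6 SR genes in vehicle libraries, was within the spread of Srsf6 and Srsf7 in inhibitor libraries. The summed level of the 6 SR genes was 693, 537 and 476 RPKM under vehicle and 502, 529.99 and 569 RPKM under the inhibitor, and the groups overlapped.

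All 10 genes share a property of their annotated transcripts that the choice did not use. GENCODE lists for each of them at least 1 transcript classed as a target of nonsense-mediated decay and at least 1 with a retained intron. Transcripts of both classes are annotated for 22.6% of the 12250 tested protein-coding genes that could be matched by symbol. They are commoner in some related lists: 14 of 19 speckle and transport genes, 9 of 17 other SR factors, 11 of 22 hnRNP genes and 13 of 37 core spliceosome genes have both, against 4 of 15 kinases. The members have 4 to 19 annotated transcripts, where the median of tested genes is 5. The part of transcript number in this was not tested. Clk1 has 13 annotated transcripts, of which 2 are decay targets, 7 retain an intron and 1 is classed as protein-coding. Clk4 has 14, with 3 decay targets, 7 retained introns and 4 protein-coding. Srsf11 has 19, with 3 decay targets and 11 retained introns, and Srsf6 has 4, with 1 of each. The deposited counts give 1 value per gene and do not separate these classes, so which of them moved for Clk1 and Clk4 was not analysed here. The deposited length is 3088 bases for Clk1 and 1955 for Clk4. Their GENCODE transcripts together hold 8440 and 6225 distinct stretches of 50 bases. The counted gene model may thus be shorter than that of GENCODE, and how far reads in retained introns entered the counts is not known.

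Promoter sequences were taken from RefSeq (GRCm38.p6), which held 9 of the 10 genes, Clk1 being unmatched. Each covers 250 bases before and 50 after an annotated RefSeq start. RefSeq and GENCODE starts differ for some genes. The Clk3 and Clk4 windows and 1 Srsf11 window lie inside the GENCODE gene spans given above. The windows were searched on both strands for the cAMP response element TGACGTCA, its core TGACG (which the full element contains), the FOXO motif GTAAACA and the heat shock element GAANNTTC. FOXO factors are held out of the nucleus by PI3K and AKT signalling. The full cAMP response element was found in 1 of the 9 genes, Clk4, and in 1.79% of all 32851 promoters in the table. The core was found in 8 of the 9, Srsf7 being the exception, and in 20.8% of all promoters. In Srsf2 the only core lay after the start. Srsf11 has 2 windows and held the core in 1 of them. The FOXO motif was found in 1 gene, Srsf6, against 3.65% of all promoters, and the heat shock element in 0 of the 9 against 7.86%. The members' windows had a GC content of 56.0% to 74.7%, against a median of 52.7% over all promoters. The part of GC content in the count of cores was not tested. These matches are letters in a window and show no binding.

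The 250 bases before the start are shown for Clk4, the called gene with the full element, for Clk2, a family member without it, and for the SR genes with the most and the fewest cores, Srsf3 and Srsf7. They read 5′ to 3′ along the gene, and capitals mark the element or its core on either strand. Clk4 lies at chr11:51262864-51263113 (plus strand), Clk2 at chr3:89164545-89164794 (plus strand), Srsf3 at chr17:29032410-29032659 (plus strand) and Srsf7 at chr17:80207306-80207555 (minus strand).
Clk4: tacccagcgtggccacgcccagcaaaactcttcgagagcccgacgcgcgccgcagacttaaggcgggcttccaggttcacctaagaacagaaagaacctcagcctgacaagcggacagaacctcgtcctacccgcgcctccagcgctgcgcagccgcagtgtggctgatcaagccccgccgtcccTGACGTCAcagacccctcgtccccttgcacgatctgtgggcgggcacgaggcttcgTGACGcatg
Clk2: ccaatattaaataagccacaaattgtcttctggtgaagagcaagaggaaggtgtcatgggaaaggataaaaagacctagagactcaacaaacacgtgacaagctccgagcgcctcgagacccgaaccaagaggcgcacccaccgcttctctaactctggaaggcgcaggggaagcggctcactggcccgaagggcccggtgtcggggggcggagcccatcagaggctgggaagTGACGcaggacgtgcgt
Srsf3: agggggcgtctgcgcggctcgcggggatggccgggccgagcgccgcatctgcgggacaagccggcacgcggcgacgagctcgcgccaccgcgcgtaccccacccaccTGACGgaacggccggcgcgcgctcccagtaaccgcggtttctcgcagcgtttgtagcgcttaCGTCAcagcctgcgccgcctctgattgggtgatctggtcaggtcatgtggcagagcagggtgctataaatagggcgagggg
Srsf7: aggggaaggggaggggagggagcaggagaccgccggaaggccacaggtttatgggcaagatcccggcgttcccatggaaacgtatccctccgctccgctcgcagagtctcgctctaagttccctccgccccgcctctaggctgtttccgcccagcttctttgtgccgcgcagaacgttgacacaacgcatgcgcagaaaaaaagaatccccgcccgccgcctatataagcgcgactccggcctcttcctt
In Clk4 the full element starts 65 bases before the RefSeq start, and a further core starts 9 bases before it. That start lies downstream of the GENCODE start of Clk4, 51261730. The Clk2 core starts 17 bases before the start. Srsf3 holds cores 143 and 81 bases before the start and another within the transcribed part of its window.

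The rest of the splicing machinery was read through lists of genes outside the set, drawn up with earlier results of these data known. Of 17 tested other SR and SR-like factors, 0 passed the edgeR test, and an unadjusted p under 0.05 was reached by 2 higher and 1 lower (by 9.68% and 11.9% of all tested genes, 21.6% together), and the median log2 fold change was 0.030. DESeq2 called 1 higher, limma voom 0, and voom with sample quality weights 1 higher and 1 lower. Of all tested genes DESeq2 called 4.90% higher and 7.23% lower (12.1% together), voom 0.234% and 0.429% (0.664%), and voom with quality weights 10.7% and 11.6% (22.3%). Rsrc2, an SR-related coiled-coil protein, went from 68.8 ± 1.72 to 90.7 ± 3.55 CPM (SD, n = 3). Its log2 difference was 0.40 ± 0.10 (SE), at an edgeR adjusted p of 0.0812. Srsf9, the SR protein closest to Srsf1, went from 60.7 ± 2.38 to 49.5 ± 1.66 CPM (-0.30 ± 0.10; edgeR adjusted p = 0.154). Rsrp1, a small arginine- and serine-rich protein, had a log2 fold change of 0.73 ± 0.30, and Srrm1, a coactivator that bridges SR proteins on the exon, one of -0.46 ± 0.22. Without vehicle 1 these were 0.46 and -0.17.

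Other kinases of SR proteins were read in the same way. Of 15 tested kinases and related factors of speckles, 0 were called by edgeR, an unadjusted p under 0.05 was reached by 1 higher and 1 lower gene, and the median was 0.10. DESeq2 called 1 higher, voom 0, and voom with quality weights 1 higher and 1 lower. Dyrk1b, a kinase of the same wider group, went from 10.6 ± 1.86 to 16.3 ± 1.77 CPM (SD, n = 3). Its log2 difference was 0.63 ± 0.19 (SE), at an edgeR adjusted p of 0.111, and 0.73 ± 0.17 without vehicle 1, at an edgeR adjusted p of 0.0468. Srpk2, which phosphorylates SR proteins in the cytoplasm, had 0.51 ± 0.23 (edgeR adjusted p = 0.259), with 0.29 without vehicle 1, and Cdk11b, a kinase that acts on the spliceosome, had 0.22 ± 0.13. Hipk2, a nuclear kinase, had -0.63 ± 0.21, with -0.36 without vehicle 1.

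Factors of speckles and of SR transport included 0 of 21 called by edgeR, 0 at an unadjusted p under 0.05, 0 called by DESeq2 and by voom and 2 higher by voom with quality weights, and a median of 0.020. Without vehicle 1 edgeR called 1 of the 21 higher, near the 3.10% of all genes in that fit. Ccnl2, a cyclin that binds the CDK11 kinase of splicing, had 0.28 ± 0.12 (SE; edgeR adjusted p = 0.246), Luc7l3, a U1 snRNP factor, 0.41 ± 0.19, and Tnpo3, the importin of SR proteins, -0.18 ± 0.10. Luc7l3 was at 0.22 without vehicle 1. Of 22 hnRNP genes, whose proteins often oppose SR proteins on exons, 0 were called by edgeR, 0 had an unadjusted p under 0.05, 0 were called by DESeq2 and by voom and 1 higher by voom with quality weights, with a median of 0.0030. Hnrnph1 had 0.34 ± 0.15 and Hnrnpd -0.29 ± 0.18, and without vehicle 1 they had 0.22 and -0.12.

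The core spliceosome had 0 of 37 genes called by edgeR, an unadjusted p under 0.05 in 2 higher and 5 lower genes, and a median of -0.038. Groups did not overlap for 3 higher and 13 lower genes of the 37, as for 14.4% and 16.2% of all tested genes. DESeq2 called 1 lower, voom 0, and voom with quality weights 3 higher and 4 lower. The values of the U2 snRNP genes Sf3b4 and Sf3a2 were -0.39 ± 0.12 and -0.34 ± 0.11 (SE; edgeR adjusted p = 0.114 and 0.132), that of Snrpa, of the U1 snRNP, -0.37 ± 0.11, and that of Prpf8, the scaffold of the catalytic centre, -0.32 ± 0.12. Among 15 factors of nonsense-mediated decay and the exon junction complex, the pathway that removes poison-exon transcripts, 0 were called by edgeR or DESeq2 or voom, an unadjusted p under 0.05 was reached by 2 higher and 0 lower genes, and voom with quality weights called 2 higher and 1 lower, with a median of -0.026. Smg9 and Upf2 had 0.37 ± 0.12 and 0.296 ± 0.118.

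**Figure D4:**
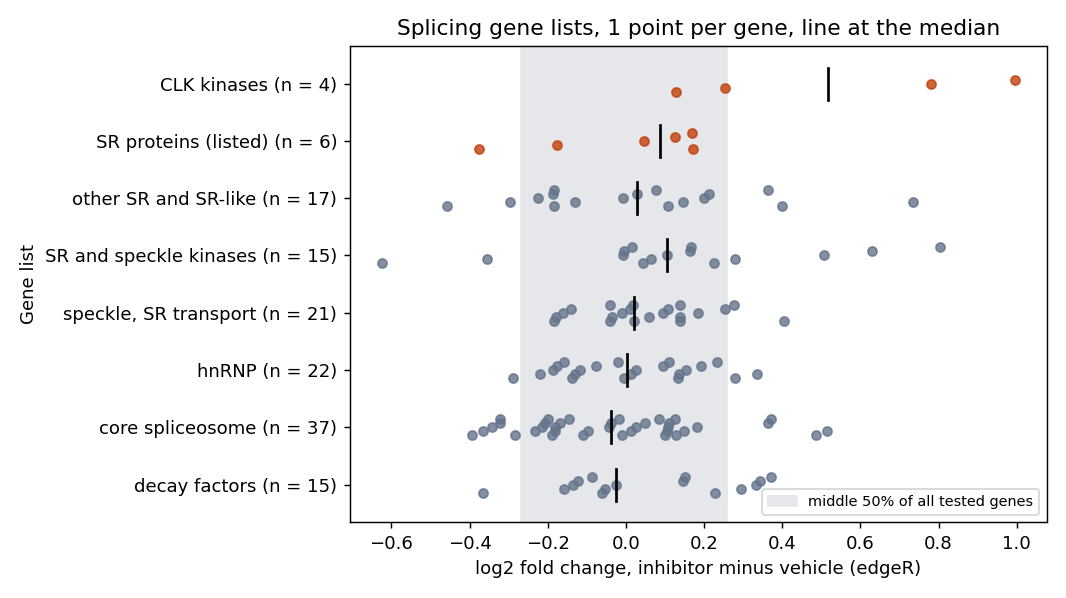
Log2 fold change (inhibitor minus vehicle, edgeR) of every tested gene in the CLK and SR set (orange) and in 6 lists of other splicing and decay genes (grey), 1 point per gene with a line at each median. The grey band is the middle 50% of all tested genes, from -0.27 to 0.26; Clk1 and Clk4 lie to its right at 0.995 and 0.782, and the medians of the 6 grey lists lie between -0.038 and 0.10.

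Genes with a profile like that of Clk1 were sought among 9687 tested genes outside the set that averaged 5 CPM or more. Likeness was the root-mean-square difference between mean-centred log2(CPM + 1) profiles over the 6 libraries, on which scale a flat gene would lie 0.504 from Clk1. The 5 closest were Il15, a cytokine that sustains NK cells, at 0.0832, Erg, a transcription factor of blood stem cells, at 0.121, Tmem40 at 0.122, Gm19705 at 0.123 and Gmfg, an actin regulator of leukocytes, at 0.123. Il15 went from 12.001 ± 1.02 to 22.4 ± 2.99 CPM and Erg from 39.2 ± 2.50 to 70.7 ± 4.37 CPM (SD, n = 3). Clk4 lay 0.138 from Clk1, and 0.0723% of the candidates were closer. Both genes were chosen with this contrast known and both were higher with the inhibitor, so their likeness is a description and supports nothing. Of the other 8 members, Clk2 came next at 0.398, with 16.3% of candidates closer, and Srsf5 was farthest at 0.789, with 89.4% closer. Without vehicle 1, 1 of the 5 closest genes, Il15, was again among the closest 5, while the share of candidates closer to Clk1 than Clk4 was again 0.0723%.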

How the data were processed

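RNA from 6 marrow libraries was made into full-length cDNA (SMART-Seq v4) and Nextera XT libraries, per the labels' protocols, and the submitters' processing notes name STAR, featureCounts and the mm10 build, without versions. The authors deposited raw read counts per gene, each gene's length, and their own fold change (a ratio), log2 fold change and p-values, from a test that no label or header names. Groups follow the labels. Counts were tested in edgeR 4.0.16 (R 4.3.3): filterByExpr (12806 genes tested, 2186 left out), TMM, quasi-likelihood F test on group alone, Benjamini-Hochberg adjusted p under 0.05. The SE is the size of the log2 fold change divided by the square root of F. RPKM uses the deposited length. All library pairs differed beyond sampling noise. The steps were tested on simulated data. Named genes are the 10 members, Dnmt3a, up to 4 genes of smallest p per list, and the 5 nearest profiles; genes that share sequence or exons with a member, and markers, are named beside it. Members and lists were chosen with earlier results of these data known. Overlaps, transcript classes and shared sequence come from GENCODE, promoters from RefSeq. Alternatives were 2 other scalings, DESeq2 1.42.0, limma 3.58.1 voom with and without quality weights, 2 filters, a replicate block and each library left out.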

Additional observations from a re-analysis of the deposited data

How the results depend on the processing

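Genes called numbered 81 higher and 153 lower over all 6 libraries. They numbered 628 and 926 with DESeq2, 30 and 55 with limma voom, and 1374 and 1483 with voom and sample quality weights, which gave vehicle 1 a weight of 0.161. With 1 library left out they ran from 0 to 401 higher and from 0 to 633 lower, and the members called from 0 to 3. The titles give 2 numbers, 1 and 3, to a library of each group. Deviations of same-numbered libraries from their group means had correlations of -0.51 and -0.10 across genes. Deviations within a group of 3 sum to 0, so these values cannot decide whether the numbers pair the samples. The labels do not say whether they do. With the replicate number as a block 0 genes were higher, 7 lower and 0 members called, with log2 fold changes of 0.958 for Clk1 and 0.744 for Clk4. Voom with quality weights and the fit without vehicle 1 turned Srsf5 to 0.19 and 0.26 and Cirbp to 0.41 and 0.51. With 1 library left out, Clk3 ran from -0.0076 (without vehicle 2) to 0.43, Srsf3 from -0.026 (without vehicle 3; -0.019 without inhibitor 5) to 0.12, Srsf5 from -0.63 to 0.26, Cirbp from -1.19 to 0.51 and Rbm3 from -0.0067 (without vehicle 3) to 0.59. Rbm3 was -0.043 with the block. The cause of these changes was not tested. Of 140 values of the 10 members under alternatives, 121 kept their direction and side of the threshold, 12 lost a call, 2 gained one and 5 turned. The 12 were 6 each of Clk1 and Clk4. For the genes nearest to Clk1, 5 of 5 were shared with DESeq2 size factors and 4 of 5 with a prior of 0.1 CPM.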

Other observations

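Genes for cold-inducible RNA-binding proteins, which respond to body temperature as CLK activity does, were read as a list of 2. Cirbp stood at 109 CPM in vehicle 1 and 21.6 and 18.7 CPM in vehicles 2 and 3, then 25.9, 28.2 and 31.7 CPM under the inhibitor. All 3 inhibitor libraries thus lay above vehicles 2 and 3 and far below vehicle 1. Srsf5 and Clk3 had the same rank order, with a smaller gap for Clk3 (89.7 to 96.9 against 116.7 CPM in vehicle 1). The log2 fold change of Cirbp was -0.80 ± 0.64 (SE) over all 6 libraries, at an edgeR adjusted p of 0.504. Without vehicle 1 it was 0.51 ± 0.14, at an edgeR adjusted p of 0.0684. Rbm3 stood at 714, 386 and 341 CPM under vehicle, then 450.1, 509.7 and 682 CPM under the inhibitor. The rank order was the same, with inhibitor 5 close to vehicle 1.

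Genes that respond to handling and heat held no gene called higher by edgeR. Of 18 immediate early genes edgeR called 2 lower, the transcription factor genes Egr1 and Fosb, and 0 higher, where 1.19% of all tested genes were called lower. The median log2 fold change was -0.64. The 18 genes summed to 2839, 1636.5 and 2135 CPM under vehicle, highest in vehicle 1, and to 1947, 1846 and 1501 CPM under the inhibitor. Vehicle 2 thus lay within the inhibitor range. The count called lower ran from 0 to 6 under the alternatives. Fosb, at 1.40 ± 0.30 and 0.376 ± 0.072 CPM (SD, n = 3; edgeR adjusted p = 0.0495), lost its call with voom, with no filter, with the replicate block and in the 5 fits without vehicle 2, vehicle 3 or any inhibitor library. Egr1 stood at 46.6, 11.8 and 31.3 CPM under vehicle, then 3.94, 4.09 and 3.48 CPM under the inhibitor (-2.96 ± 0.47, SE; edgeR adjusted p = 0.0403, lost with voom and in the 4 fits without vehicle 3 or any inhibitor library). Of 15 heat shock genes 0 were called by edgeR, an unadjusted p under 0.05 was reached by 3 lower and 0 higher, and DESeq2 called 2 lower, voom 0 and voom with quality weights 4 lower. Hspa1a, which encodes the inducible HSP70 and is near 1 CPM, stood at 0.938 ± 0.273 with vehicle and 0.171 ± 0.079 CPM with the inhibitor (SD, n = 3). Its log2 fold change was -2.43 ± 0.47 (SE; edgeR adjusted p = 0.0537). Bag3, a co-chaperone, had -1.02 ± 0.26 (SE; edgeR adjusted p = 0.0822) and -0.69 ± 0.14 without vehicle 1 (edgeR adjusted p = 0.0285), where edgeR called 3 of the heat shock genes lower and 4.89% of all tested genes.

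Rsrp1 was lowest in vehicle 1, where Srsf5 was highest: it stood at 83.7 CPM there against 173 and 169.7 CPM in vehicles 2 and 3, then 302, 214 and 193 CPM under the inhibitor.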
